A study of Gallus gallus with 4 samples.

Results

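The genes described here are 86 of the 17108 chicken genes in a count table from the embryonic neural tube. They were weakly expressed in control cells and lower in cells carrying MEK1ca. MEK1ca is a constitutively active form of the kinase MEK1, which acts upstream of ERK1/2. The members were selected on the measured values of all 4 libraries. In each library a gene's level was taken as its counts per 1000000 counts of the column total (CPM). The lower of both pCIG levels had to lie at 1 CPM or more and under 10 CPM, and the higher MEK1ca level had to be at most 0.6 times the lower pCIG level. Genes on chromosome 16 and genes spanning 400 kb or more were left out, which removed 1 further gene that met both limits. Since the levels and the difference between the groups made the selection, they are given as a description, without a test.

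The libraries came from the trunk neural tube electroporated on both sides at stage HH 11 with 5 pulses of 50 ms at 25 V. MEK1ca cells received pCIG-MEK1ca at 1 µg/µl together with pCIG at 1 µg/µl, whereas pCIG cells received the empty plasmid alone at 2 µg/µl. Both groups therefore carry the GFP plasmid, and GFP-expressing, DAPI-negative cells were sorted 18 h later from pooled embryos. There are 2 libraries per group, and the labels name the pCIG libraries as re-analysed. Because the electroporated tissue is a mixture of cells, fewer cells of a type and less RNA per cell cannot be told apart in these values.

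In vertebrate embryos, FGF ligands made at the caudal end signal through RAS, RAF, MEK and ERK. Activated ERK enters the nucleus and phosphorylates transcription factors, including members of the ETS family. In the caudal neural tube this signal keeps progenitors immature, and its decline allows them to differentiate into neurons. Genes with low levels in such a tissue can be active in few cells or weakly active in many, which bulk RNA does not separate.

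The members carry Ensembl identifiers only. Of the 17108 identifiers in the table, 0 matched the gene names of the later chicken assembly used here. The roles of the 86 genes, and the markers of the neural tube and of other cell types, were therefore not examined. Members are named by their position in the galGal4 assembly, as chromosome, first base and last base. The 2 with the lowest ratio of the higher MEK1ca to the lower pCIG level are named also by identifier.

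Library totals were 63637195 and 76997561 counts for MEK1ca replicates 1 and 2, and 77004159 and 79064166 counts for pCIG replicates 1 and 2. The members together held 8413 and 11646 counts in the MEK1ca libraries, against 25636 and 27229 in the pCIG libraries. That was 132 and 151 CPM in MEK1ca, and 333 and 344 CPM in pCIG. A single member had 14 to 296 counts in MEK1ca replicate 1 and 26 to 422 in replicate 2, and 79 to 901 counts in pCIG replicate 1 and 80 to 987 in replicate 2. Counting error is thus largest on the MEK1ca side. The lowest count of all, 14 in MEK1ca replicate 1 for the gene on chromosome 1 at 193668690 to 193669649, has an exact 95% Poisson interval of 7.65 to 23.5 counts. In 24 members at least 1 MEK1ca library held under 50 counts. Such intervals cover counting error only, and PCR copies are not independent molecules.

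**Figure D1:**
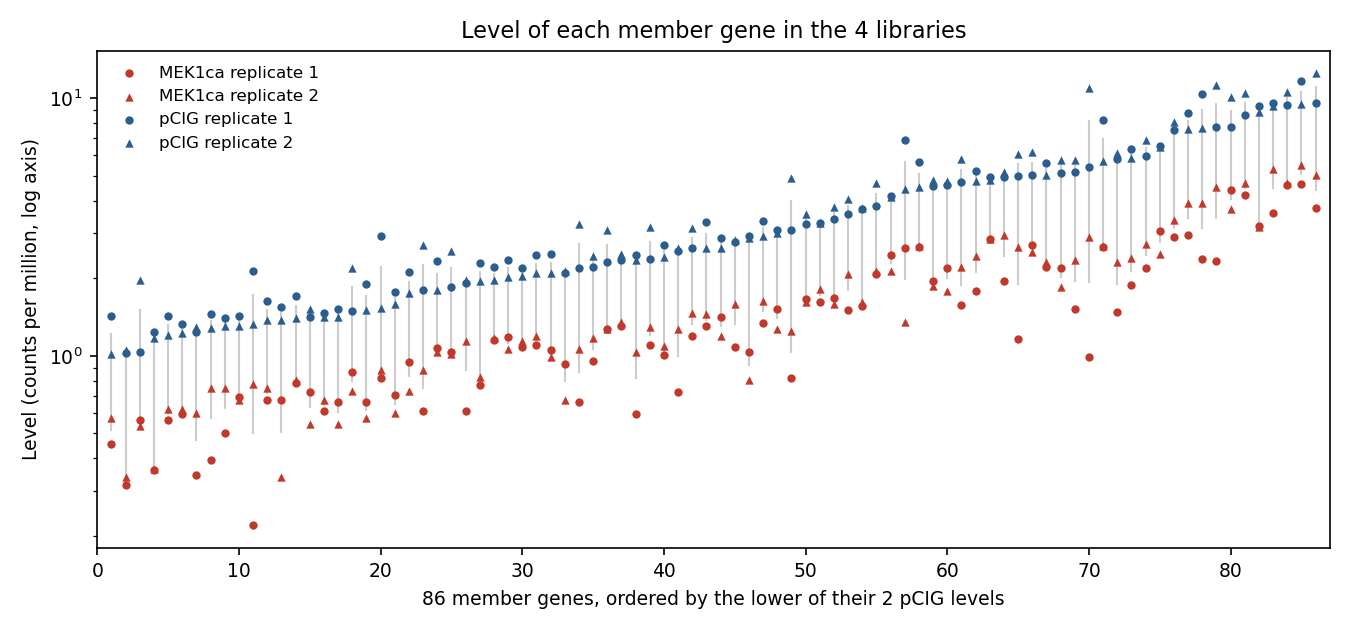
Level of each of the 86 member genes in the 4 libraries, in CPM on a log axis, with the members ordered by the lower of both pCIG levels; red points are MEK1ca libraries, blue points pCIG libraries, and grey lines join the group means. The red points lie below the blue ones for each member, as the rule requires, and the gap is about as wide at the left end as at the right.

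Across the members, the median level was 1.17 and 1.29 CPM in MEK1ca replicates 1 and 2, and 2.89 and 2.96 CPM in pCIG replicates 1 and 2. The ratio of the MEK1ca mean to the pCIG mean had a median of 0.429 and ran between 0.237 and 0.582. Expressed the other way round, members were 1.72-fold to 4.21-fold lower in MEK1ca, with a median of 2.33-fold. The difference was 3-fold or more for 9 members and under 2-fold for 12. The limit of 0.6 was met by 3.31% of the 2598 genes in the same range of pCIG levels (chromosome 16 and the longest genes left out), and by 0.93% of the 8175 genes at 10 CPM or more. Both shares follow from the rule, and nothing is read from them.

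Within the range of pCIG levels, 28 members lay under 2 CPM, 37 from 2 to under 5 CPM and 21 at 5 CPM or more. The median ratio of the MEK1ca mean to the pCIG mean in these bands was 0.426, 0.461 and 0.397. Across the 86 members, the pCIG level and the ratio used by the rule had a Pearson r of -0.05 and a Spearman rho of -0.08. Both measures contain the pCIG level and come from the same libraries, so the coefficients only describe the list.

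**Figure D2:**
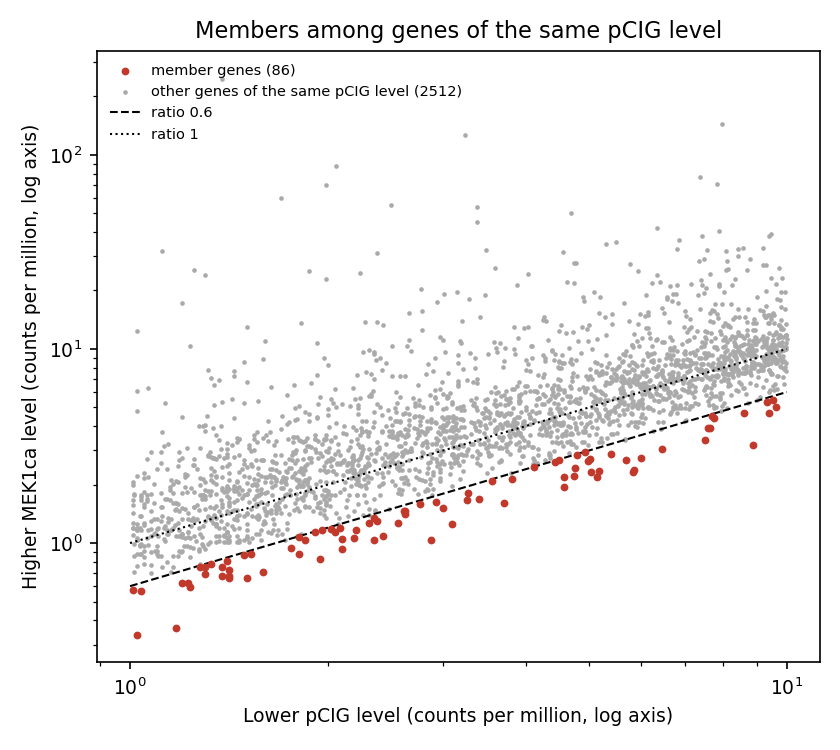
Higher MEK1ca level plotted against lower pCIG level, both in CPM on log axes, for the 86 members (red) and the other genes of the same pCIG level (grey); the dashed line is the ratio of 0.6 and the dotted line a ratio of 1. Members lie below the dashed line by definition, most of them close to it.

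The members were not a separate cloud. The ratio of the higher MEK1ca level to the lower pCIG level was above 0.55 for 32 members, at most 0.5 for another 32 and at most 0.4 for 5. Just inside the limit, the gene on chromosome 17 at 8044551 to 8050092 had a ratio of 0.599, with 0.613 and 1.14 CPM in MEK1ca and 1.91 and 1.96 CPM in pCIG. The gene on chromosome 12 at 11822675 to 11836270 had a ratio of 0.598. Just outside it, a gene on chromosome 4 at 38434799 to 38434868 had 0.6004 and a gene on chromosome Z at 53681704 to 53692915 had 0.601. The ratios run on across the limit without a gap.

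The limits on the pCIG level cut through equally continuous values. Nearest above 1 CPM were the members on chromosome 20 at 9280352 to 9338425 and on chromosome 17 at 5881860 to 5902534, whose lower pCIG levels were 1.01 and 1.03 CPM. Of genes that met the ratio, those on chromosome 7 at 30750466 to 30763505 and on chromosome 6 at 22931559 to 22936276 fell just short, at 1.00 (rounded up) and 0.974 CPM. At the upper end, the members on chromosome 15 at 10794681 to 10798850 and on chromosome 3 at 15398038 to 15402660 had 9.61 and 9.52 CPM. The genes on chromosome 23 at 1191630 to 1236092 and on chromosome 1 at 169616748 to 169647630 stood just above, at 10.1 and 10.2 CPM.

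The 12 members with the lowest ratio of the higher MEK1ca to the lower pCIG level, 0.309 to 0.439, lay on 8 chromosomes. The first was ENSGALG00000010711, on the plus strand of chromosome 2 at 25215575 to 25351551, with 3 exons. It had 23 and 28 counts in MEK1ca, or 0.361 and 0.364 CPM, against 95 and 93 counts in pCIG, or 1.23 and 1.18 CPM. The libraries of each group nearly coincided, and the mean was 3.32-fold lower in MEK1ca. The second was ENSGALG00000023689, on the plus strand of chromosome 17 at 5881860 to 5902534, with 15 exons. It had 20 and 26 counts in MEK1ca (0.314 and 0.338 CPM) and 79 and 83 counts in pCIG (1.03 and 1.05 CPM). For both, the groups are well apart but rest on few counts.

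The third rests on many more counts. This minus-strand gene of chromosome 3, at 110287063 to 110387161 with 6 exons, had 203 and 244 counts in MEK1ca and 720 and 701 in pCIG. Its levels were 3.19 and 3.17 CPM in MEK1ca, against 9.35 and 8.87 CPM in pCIG, so the libraries within each group again lay close together. The fourth, a short gene with 388 bp of exon on chromosome 2 at 92627800 to 92630335, had 1.04 and 0.805 CPM in MEK1ca and 2.92 and 2.87 CPM in pCIG. The fifth, with 2 exons on chromosome Z at 54900617 to 54910056, had 1.48 and 2.31 CPM in MEK1ca and 5.83 and 6.15 CPM in pCIG. For that gene the MEK1ca libraries were further apart than the pCIG libraries, without coming near the pCIG values.

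The minus-strand gene of chromosome 19 at 7630833 to 7638493, sixth by the ratio, shows how the choice of the nearest pair of libraries works. It had 0.817 and 1.25 CPM in MEK1ca, against 3.09 and 4.92 CPM in pCIG, and its means were 3.88-fold apart. On chromosome 1 at 42006975 to 42038172, a gene of 2 exons and 5893 bp of exon had 1.89 and 2.39 CPM in MEK1ca and 6.34 and 5.86 CPM in pCIG. The remaining 5 of the 12, on chromosomes 3, 20, 1, 4 and Z, were 2.35-fold to 2.76-fold lower by their means.

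Ranked by means instead, the largest factor belonged to a gene outside these 12. On chromosome 4 (minus strand, 57631764 to 57683454), a gene of 25 exons had 0.990 and 2.88 CPM in MEK1ca, against 5.40 and 10.9 CPM in pCIG. The mean was 4.21-fold lower, but replicate 2 was the higher library, by more than 2-fold, in both groups. The single-exon gene on chromosome 1 at 193668690 to 193669649 had 0.220 and 0.779 CPM in MEK1ca and 2.13 and 1.33 CPM in pCIG. Its libraries also lay far apart, but replicate 2 was the higher one in MEK1ca only. For these genes the size of the difference depends on which library is taken from each group.

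Levels of different genes can be compared only per length. Per kilobase of summed exon, the members reached a median of 0.629 CPM in MEK1ca and 1.60 CPM in pCIG, with 0.173 to 9.01 CPM per kilobase in pCIG. The highest belonged to a gene of 1 exon and 173 bp on chromosome 4 at 30365557 to 30365729, with 4.60 ± 0.0797 CPM per kilobase in MEK1ca and 9.01 ± 1.27 in pCIG (SD, n = 2 each). This gene lies wholly inside a larger gene on the opposite strand, described below with the overlaps. Next came the 388 bp gene on chromosome 2 at 92627800 to 92630335, at 2.37 ± 0.423 in MEK1ca and 7.47 ± 0.0926 in pCIG, and the gene on chromosome 3 at 110287063 to 110387161, at 2.58 ± 0.0121 in MEK1ca and 7.40 ± 0.278 in pCIG.

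The fourth to sixth per length were the genes on chromosome 15 at 10794681 to 10798850, chromosome 3 at 87768167 to 87768495 and chromosome 27 at 5102844 to 5105307. Their levels per kilobase were 2.82 ± 0.591, 2.58 ± 0.142 and 2.87 ± 0.427 CPM in MEK1ca, against 7.10 ± 1.31, 6.75 ± 2.96 and 6.73 ± 0.0600 CPM in pCIG. Of the 6 genes highest per length, 3 had under 400 bp of exon. The lowest per length was the member with the most exons, 61 over 8478 bp, on chromosome 5 at 11381876 to 11476414, with 0.0711 ± 0.00955 CPM per kilobase in MEK1ca and 0.173 ± 0.00858 in pCIG. Its long exon sequence and its 117 and 112 counts in pCIG place it at the foot of the list.

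The spread between libraries of a group bears on each of these values. The MEK1ca libraries differed by 1.5-fold or more in 17 members and by 2-fold or more in 4, and the pCIG libraries in 6 and 1. At 1.5-fold this was 19.8% of members for MEK1ca and 6.98% for pCIG. Of the 2386 other genes of the same pCIG level it was 15.7% and 13.9%. The rule used the levels of all 4 libraries, so nothing is read from these shares. The second MEK1ca library was the higher one in 57 of 86 members (66.3%, 95% exact binomial interval over genes 55.3 to 76.1%). Among the other genes of the same pCIG level, leaving out those at least doubled in MEK1ca, it was higher in 58.9% of 2386. Among the genes at 10 CPM or more in pCIG that met the same limit on the ratio, it was higher in 78.9% of 76. Of the 126 genes of the members' level at least doubled in MEK1ca, it was higher in 38.9%. A higher replicate 2 in MEK1ca was thus not particular to the members. The second pCIG library was the higher one in 41 members. Median log2 ratios of replicate 2 over replicate 1 were 0.11 in MEK1ca and -0.02 in pCIG. The members' difference between groups was present in each of the 4 pairings by selection, and relative to the pCIG mean its median was -1.27 on the log2 scale in MEK1ca replicate 1 and -1.14 in replicate 2.

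**Figure D3:**
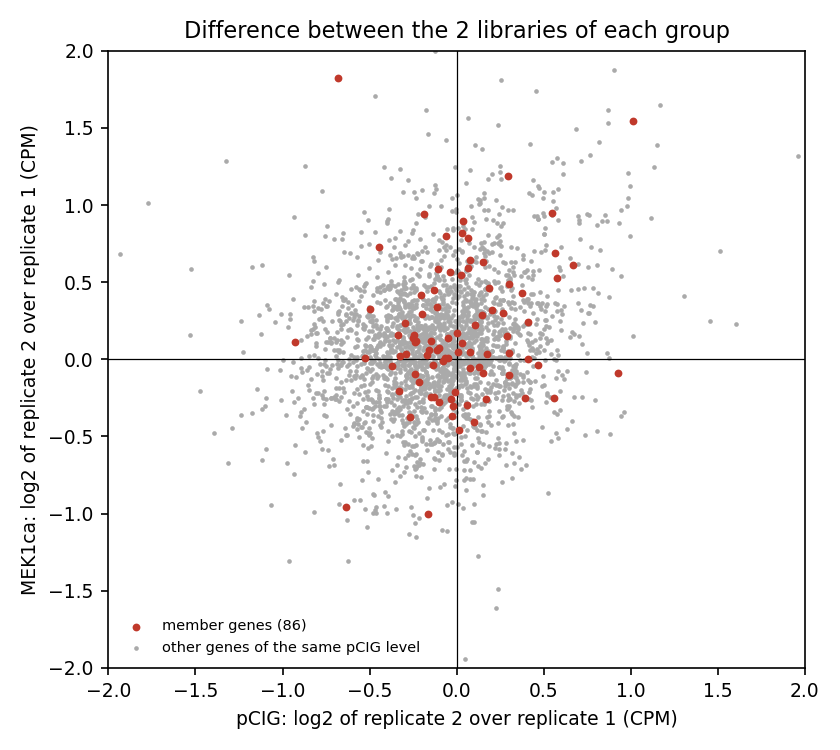
Log2 of replicate 2 over replicate 1 in MEK1ca (vertical axis) against the same ratio in pCIG (horizontal axis), from levels in CPM, for members (red) and the other genes of the same pCIG level (grey); 7 grey genes lie outside the axes. Most members lie within 0.5 of 0 in both directions, and the few far from 0 in MEK1ca are mostly above it.

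Counts in MEK1ca replicate 2 were mostly even. Of the 86 members, 82 had an even count in this library (95.3%, 95% exact binomial interval 88.5 to 98.7%), against 45 in MEK1ca replicate 1, and 44 and 37 in pCIG replicates 1 and 2. The share in MEK1ca replicate 2 was 92.1% among the 2386 other genes of this level. It was 82.5% among all 10838 genes with 1 CPM or more in both pCIG libraries. The reason is not stated in the labels or the methods. An alternative added after the data were examined halved all counts of this library. There edgeR called the same 55 members lower as with the counts as deposited. Scaling by library size takes up most of such a halving, so this fit cannot show whether the even counts matter. Whether the deposited counts of this library are independent fragments was not tested, and the counts given above are as deposited.

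In the fit across all 13024 genes that passed the filter on low counts, all 86 members were tested. The members' log2 fold changes had a median of -1.20 and ran between -2.05 and -0.76, with standard errors of 0.19 to 0.63. The median was 0.00 over all genes tested and -0.05 over the 2598 of the same pCIG level. At an adjusted p under 0.05 in edgeR's quasi-likelihood test, 55 members were called lower, and 5.75% of all genes tested were. The rule used the same contrast, so nothing is read from this count. Genes with both MEK1ca levels below both pCIG levels, as in each member, made up 32.7% of all genes tested and 35.5% of those in the same range of pCIG levels. Among the genes of that range, edgeR called 4.0% lower and 9.16% higher. At an adjusted p under 0.01 in edgeR, 20 members were called lower, and 1.95% of all genes tested were.

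By pCIG level, edgeR called 7 of 28 members under 2 CPM lower, 28 of 37 from 2 to under 5 CPM and 20 of 21 at 5 CPM or more. Of all genes in these bands, 1.13%, 4.0% and 6.15% were called lower, so calls were also fewer among weak genes in general, and nothing about the members is read from the bands. The members' median standard error on the log2 scale was 0.39 in the lowest band, 0.30 in the middle one and 0.24 in the highest. The 31 members that did not pass had a median log2 fold change of -1.08, against -1.28 for the 55 that did. The steepest fitted value, -2.05 for the gene on chromosome 4 at 57631764 to 57683454, was among those that did not pass.

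With 1 library left out, edgeR called fewer members lower each time. Such a fit has fewer libraries to estimate the spread from. Reliance on a particular library therefore cannot be told apart from a loss of calls with less data. Without pCIG replicate 2, edgeR called 6 members lower and 1.52% of all genes tested. Without pCIG replicate 1 it called 13 members and 1.97% of all genes, without MEK1ca replicate 1 it called 31 and 3.86%, and without MEK1ca replicate 2 it called 46 and 6.78%. In these fits the spread of the remaining single library is taken from the other group. Over these 4 fits the median log2 fold change of the members stayed between -1.23 and -1.13. Of the 55 members, 2 were called in each of the 4 fits, the genes on chromosome 3 at 110287063 to 110387161 and on chromosome 1 at 42006975 to 42038172, and 13 were called in none. These 2 were singled out after their values were seen. The members themselves rest on all 4 libraries, since 141 to 293 genes met the rule with 1 library left out.

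Structure and position were not used by the rule, apart from the limit on the span and the chromosome left out. The members had a median of 7 exons and 1997 bp of summed exon, after merging overlapping exon entries for the number. All genes tested had a median of 9 exons and 2206 bp, and the 2386 other genes of the same pCIG level 8 exons and 1832 bp. The 126 genes of that level that were at least doubled in MEK1ca had 9 exons and 3216 bp, and the 76 genes at 10 CPM or more that met the same limit of 0.6 had 6 exons and 2118 bp. The exon length of the members thus lay near that of other genes of their level and further from that of the doubled genes. No test was made of these differences.

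**Figure D4:**
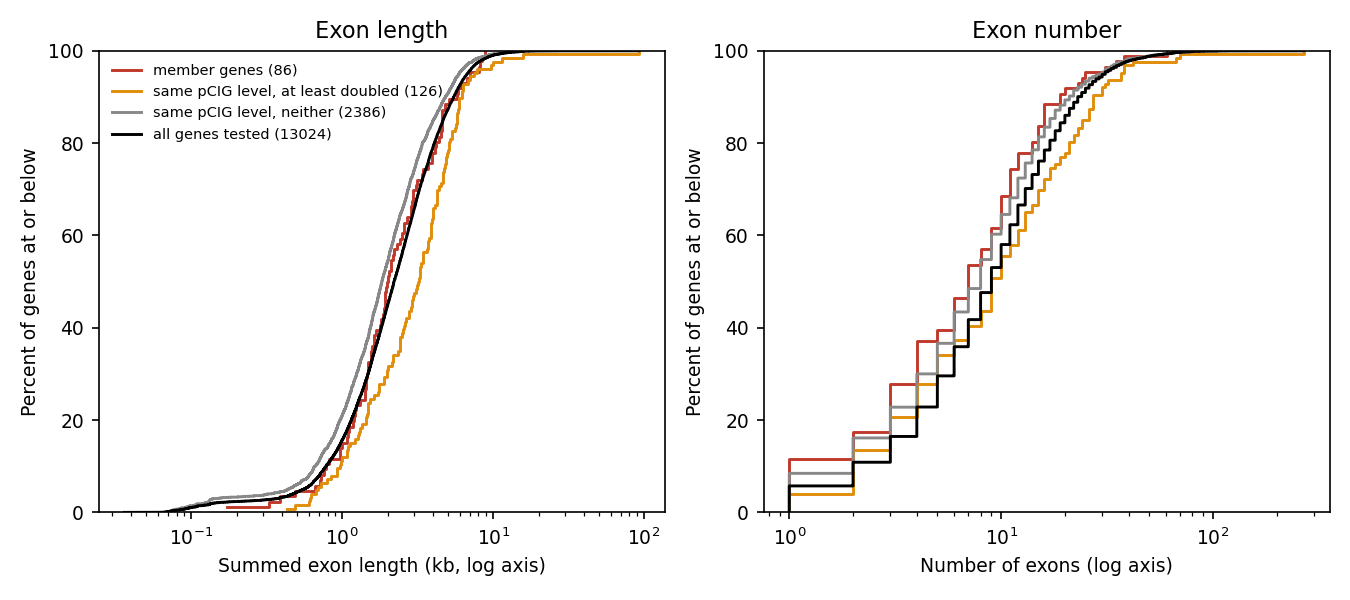
Percent of genes at or below a given summed exon length (left, in kb) and number of exons (right), both on log axes, for members (red), genes of the same pCIG level at least doubled in MEK1ca (orange), the other genes of that level (grey) and all genes tested (black). The red line runs near the grey and black ones for length, and above both for low numbers of exons.

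Genes of 1 exon numbered 10 among the members, or 11.6% (95% exact binomial interval over genes 5.72 to 20.3%). The share was 8.47% among the other genes of the same level, 3.97% among the doubled genes, 2.63% among the lowered genes at 10 CPM or more and 5.74% among all genes tested. These 10 lay on 8 chromosomes, with 173 to 2946 bp, and their means were 1.96-fold to 3.46-fold lower in MEK1ca. One of them, on chromosome 5 at 23292381 to 23294330, had 2.18 and 2.73 CPM in MEK1ca and 5.99 and 6.88 CPM in pCIG. Another, on chromosome 4 at 87094015 to 87096026, had 1.56 and 1.61 CPM in MEK1ca against 3.71 and 3.73 CPM in pCIG, with almost no spread within either group. At the other end, 33 members had 10 or more exons, which was 38.4% of members, 39.7% of the other genes of that level and 47.0% of all genes tested.

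Members lay on 23 chromosomes. Chromosome 1 held 16, chromosome 4 held 9, chromosomes 2 and 3 held 8 each and chromosome 5 held 6. The 5 together held 54.7% of the members (95% exact binomial interval over genes 43.5 to 65.4%), 42.9% of the other genes of the same level and 44.6% of all genes tested. The share of doubled genes there was 54.0%. Chromosome Z held 4 members, or 4.65%, close to its 5.07% of the other genes of the level. Chromosomes 11, 18, 22, 25, 26 and W held none, among 61, 53, 20, 26, 45 and 3 genes of the level. Of the members, 44 were on the plus strand.

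A few members overlap another listed gene in their spans, introns included. Whether their exons overlap was not examined. Whether counting used the strand is not stated, and without strand the reads from a stretch that lies in both genes cannot be told apart. Of the 86, 6 overlapped a gene on the opposite strand (6.98%, against 10.1% of the other genes of the level and 9.67% of all genes tested) and 2 a gene on the same strand. The 173 bp gene on the minus strand of chromosome 4 had 50 and 62 counts in MEK1ca and 132 and 111 counts in pCIG. It lies inside a plus-strand gene at 30294675 to 30371237, which had 15.1 and 15.4 CPM in MEK1ca and 41.5 and 41.7 CPM in pCIG. Both were lower in MEK1ca, and whose reads were counted for the shorter gene cannot be told apart.

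In 3 of the other 5 opposite-strand overlaps, the partner also had both MEK1ca levels below both pCIG levels, by a smaller factor than the member. On chromosome 1 the member at 23043272 to 23183320, with 24 exons, shares 64614 bp of its span with a plus-strand gene that had 42.0 and 42.7 CPM in MEK1ca and 49.3 and 48.7 CPM in pCIG. That gene was little lower in MEK1ca (log2 fold change -0.19, not called by edgeR), whereas the member had 1.30 and 1.45 CPM in MEK1ca and 3.31 and 2.62 CPM in pCIG. On chromosome 21 the member at 994531 to 1027576, with 38 exons, had 2.83 and 2.84 CPM in MEK1ca and 4.96 and 4.79 CPM in pCIG, and its overlapping partner had 127 and 130 CPM in MEK1ca and 150 and 160 CPM in pCIG. Its part in the member's value was not tested. At chromosome 7, 35708864 to 35712432, the spans overlapped by 619 bp, with 5.96 and 4.68 CPM for the partner in MEK1ca and 8.04 and 6.31 CPM in pCIG. In the remaining 2 cases, on chromosomes 1 and 9, the partner was under 0.5 CPM in each library.

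The tested gene nearest to a member mostly had a log2 fold change below 0 as well, by a small amount at the median. The 13024 tested genes were ordered by start, and those just before and just after each member were taken as its neighbours. The one with the smaller gap between spans is called the nearest gene here. A longer overlapping gene that starts earlier can be missed this way, as for the member on chromosome 1 at 23043272 to 23183320. This nearest gene had a log2 fold change below 0 for 64 of 86 members (74.4%), with a median of -0.16. The share was 50.7% over all genes tested and 53.0% over the 2386 other genes of the same level. For the 126 doubled genes it was 33.3%, with a median of 0.16. The share was not computed for the 76 lowered genes at 10 CPM or more, so it is not shown to be particular to weak genes. The median gap to the nearest gene was 8.06 kb for members and 7.33 kb for doubled genes. It was 3.74 kb for the other genes of the level and 3.11 kb for all genes tested. The neighbours were measured in the same libraries as the members, and no test was made. They were not held to the limits on the pCIG level, and some averaged under 1 CPM in pCIG. None of the 86 had another member as its neighbour.

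**Figure D5:**
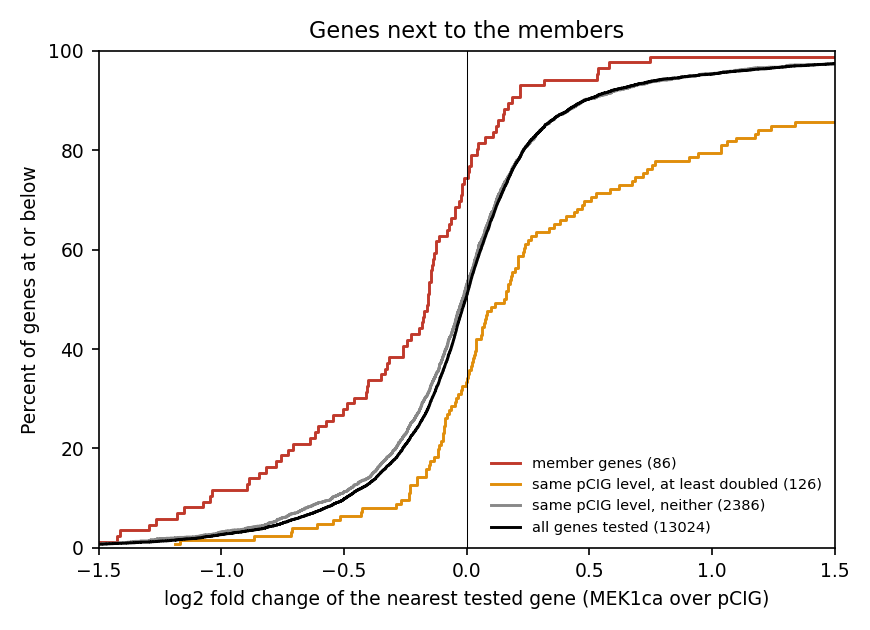
Percent of genes whose nearest tested gene has a log2 fold change (MEK1ca over pCIG) at or below the value on the horizontal axis, for members (red), genes of the same pCIG level at least doubled in MEK1ca (orange), the other genes of that level (grey) and all genes tested (black). The nearest gene is the nearer of the tested genes just before and just after in order of start. The red line crosses 0 at 74.4%, the grey line at 53.0%, the black line at 50.7% and the orange line at 33.3%.

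The share was similar at both distances and on both strands. It was 38 of 51 where the nearest gene was under 10 kb away and 26 of 35 where it was further. It was 33 of 43 where the nearest gene was on the same strand and 31 of 43 where it was on the opposite one. With 1 library left out it was 68.6 to 72.1%, and with library totals in place of TMM scaling 79.1%, where that of all genes tested was 54.9985%. The change of the neighbours was small at the median and was seen on both strands. In the fits with 1 library left out the members were still those selected on all 4 libraries. The shares there are therefore no independent support.

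Neighbours called lower by edgeR (5.75% of all genes tested) flanked 15 members, or 17.4%, against 10.9% of all genes tested and 11.8% of the other genes of the level. Neighbours called higher flanked 6 members, or 6.98%, against 15.5% of all genes tested. The 15 members had 18 neighbours called lower, of which 12 lay on the opposite strand. In 17 of the 18 cases the neighbour had more CPM in pCIG than the member, without adjustment for length. The rule held the members' lower pCIG level under 10 CPM and did not limit the neighbours, so nothing is read from this count.

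Examples, taken from members with a neighbour called lower, show such neighbours at different distances. On chromosome 1, the member at 30541566 to 30613151 had 2.66 and 2.68 CPM in MEK1ca and 8.19 and 5.69 CPM in pCIG. Its neighbour on the opposite strand, 38.2 kb away, averaged 53.4 CPM in MEK1ca and 145 CPM in pCIG. On chromosome 4 the member at 1659680 to 1674352 lay 0.155 kb from a gene on the same strand at 1656180 to 1659524, which averaged 11.2 CPM in MEK1ca and 25.9 CPM in pCIG. With log2 fold changes of -1.11 for the member and -1.18 for the neighbour, both were lowered by nearly the same factor. Reads running from one gene model into the other were not tested.

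In 3 members the neighbours on both sides were called lower by edgeR. The matching share of all genes tested was not computed, so nothing is read from this count. On chromosome 1, the member at 7521678 to 7592555 had 2.34 and 4.52 CPM in MEK1ca and 7.70 and 11.2 CPM in pCIG. Its neighbours had log2 fold changes of -0.41 and -2.17. The latter averaged only 0.190 CPM in MEK1ca and 0.876 CPM in pCIG, below the 1 CPM limit of the rule. On chromosome 3, the member at 110287063 to 110387161 lay between genes at -0.65 and -0.33, and on chromosome 5 the member at 15297420 to 15350854 between genes at -0.90 and -0.49. In each of these cases the member itself was at -0.90 or below on the log2 scale, and the flanking genes ranged from slight to steeper differences. The opposite also occurred. On chromosome 14, the member at 1799914 to 1802054, at -1.51, lay between genes at 0.75 and 0.66, both called higher by edgeR.

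Members came within 500 kb of the next member in 6 pairs. No matching count was made for other genes of the same level, so nothing is read from this one. The closest pair lay on the plus strand of chromosome 27, 21.3 kb apart with 2 genes between them, of which 1 was called lower. The first, at 5102844 to 5105307, had 3.06 and 2.48 CPM in MEK1ca and 6.55 and 6.46 CPM in pCIG. The second, at 5126612 to 5140086, had 1.41 and 1.19 CPM in MEK1ca and 2.87 and 2.62 CPM in pCIG. Within this pair the second MEK1ca library was the lower one both times, unlike in most members. On chromosome 23, 3 members in a row lay 223 and 421 kb apart, with 8 and 24 genes between them.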

How the data were processed

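The authors deposited whole-number counts per gene for 4 libraries, with exon coordinates, strand and summed exon length. Subread, featureCounts and DESeq are listed in the processing notes of the submitters, with galGal4 as the build and no versions, and whether strand was used is not stated. The authors' deposited table of their own comparison was not used. CPM were computed from column totals, and levels per kilobase by dividing by summed exon length. Counts of all genes were fitted with edgeR 4.0.16 (filterByExpr, TMM, robust quasi-likelihood, group as the only term; R 4.3.3), two-sided, with Benjamini-Hochberg adjustment. Alternatives used DESeq2 1.42.0 and limma 3.58.1, and on simulated counts the edgeR fit gave fold changes near those set, with more false calls than the nominal share. Replicates are separate RNA samples from pooled embryos per the study. The p-values rest on the spread between them, which edgeR moderates for each gene toward the trend over all genes. The labels mark the pCIG libraries as re-analysed, so a batch cannot be told apart from the plasmid. Named genes were the 12 members with the lowest ratio, the 6 highest per kilobase, those nearest each limit and any adjacent members (0 found); others named were chosen after their values were seen. Members and rules were chosen with earlier results of these data known. Gene lists by symbol were not run because 0 identifiers matched.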

Additional observations from a re-analysis of the deposited data

How the results depend on the processing

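The rule gave 80 members with TMM scaling, 82 with RLE scaling, 90 with limits on the mean pCIG level and 87 with chromosome 16 and the longest genes kept, but 32 with a ratio of 0.5 and 193 with 0.7, stricter and looser by construction. With 1 library left out, 141 to 293 genes met it, since fewer values had to pass. The number of members called lower was 43 to 63 with other scalings, filters and tools (5.02 to 7.88% of all genes tested), 20 at an adjusted p under 0.01 (1.95%), and 6 to 46 with a library left out (1.52 to 6.78%), with 6 without pCIG replicate 2 and 13 without pCIG replicate 1. With the replicate block edgeR called 72, the 55 among them, and 9.91% of all genes in place of 5.75%. The labels do not say what a replicate number shares, and over all genes tested the step between both replicates in MEK1ca had a correlation of 0.15 with that in pCIG. The median log2 fold change of the members was -1.23 to -1.13 throughout. Not called lower in the main fit were the named members on chromosome 4 at 30365557 to 30365729 and chromosome 12 at 11822675 to 11836270. The same held for those on chromosome 17 at 8044551 to 8050092 and chromosome 20 at 9280352 to 9338425. The rest of the 20 members named by rule were called. Of those that were, 14 lost the call under at least 1 alternative. The direction of all 20 is fixed by the selection. Against genes of the same pCIG level (members included) in place of all genes tested, the share with 1 exon was 8.35% in place of 5.74%, and that with a span under 10 kb 47.3% in place of 41.7%. Depth limits members under 2 CPM in pCIG, whose MEK1ca counts can be as low as 14.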
